A study of Mus musculus with 12 samples.

Results

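The 41 genes described here code for the proteins that copy DNA and prepare cells for S phase. They were taken by symbol from the gene count table of the series, which holds 38215 genes, and all 41 were among the 14983 genes with enough counts to be tested. The cells were RAW264.7, a macrophage-like line of BALB/c origin grown from a mouse tumor, and all 12 cultures received an siRNA by nucleofection. In the control siRNA groups a non-targeting siRNA was used, and in the SF3a1 siRNA groups an siRNA against Sf3a1, which codes for a subunit of the SF3a splicing complex. After 24 h of siRNA, 3 cultures of each kind were exposed to 20 ng/ml LPS, the bacterial ligand of Toll-like receptor 4, for 4 h, and 3 were left without LPS. Polyadenylated RNA was sequenced, and the counts on genes summed to 12746019 in the shallowest library and 41091887 in the deepest. Replicate 1 of each group combined 2 sequencing runs and was the deepest library of its group. The main test did not use the replicate number, and results with it as a block are named as such. Levels are given as CPM, counts brought to a common library total after scaling with the trimmed mean of M values (TMM), and a gene was called higher or lower at an adjusted p (Benjamini-Hochberg, over all tested genes) of at most 0.1 in edgeR's quasi-likelihood test, with fold changes as log2 ± standard error.

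Before a cell divides, origins of replication are loaded with the MCM helicase by Cdc6 and Cdt1, and the helicase is then activated with Cdc45 and the GINS complex. Polymerases copy the opened strands while the PCNA clamp, loaded by replication factor C, holds them on DNA and RPA covers single strands. Cyclin E and the E2F transcription factors drive the entry into S phase, and many genes of the replication machinery are known E2F targets.

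The target of the siRNA was checked first. With control siRNA and no LPS, Sf3a1 was at 173, 216 and 185 CPM in replicates 1, 2 and 3, and with LPS at 150.0, 194 and 157 CPM. With SF3a1 siRNA it was at 27.1, 27.5 and 32.1 CPM without LPS and at 30.3, 26.7 and 45 CPM with LPS, so that no SF3a1 siRNA library overlapped the control siRNA libraries. The log2 fold change was -2.73 ± 0.20 without LPS (edgeR adjusted p = 1.14e-05) and -2.30 ± 0.20 with LPS (adjusted p = 1.47e-05).

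The labelled cell type was compared with macrophage markers. Of 12 such markers, 10 had a mean above 1 CPM in every group, with Lyz2, the lysozyme of macrophages, the most abundant at a mean of 5430 to 7527 CPM. Mrc1, the mannose receptor, stayed below 1 CPM in every library, and Mertk, a receptor for apoptotic cells, had group means of 0.127 to 1.56 CPM. The summed level of the list was 9952 to 11310 CPM in the libraries with control siRNA and no LPS, 12580 to 14310 CPM after LPS, 12850 to 14090 CPM with SF3a1 siRNA and 12640 to 16530 CPM with SF3a1 siRNA and LPS. Of 20 markers of other cell types, 16 stayed below 1 CPM in every library, and Nkg7 had 0 counts in all 12. Their summed level was between 0.984 and 2.6 CPM per library, with S100a8, Siglech, Pecam1 and Cdh5 the genes that passed 1 CPM in any library. LPS raised 8 of the 12 macrophage markers and lowered 1, and SF3a1 siRNA alone raised 3 and lowered 0. In the presence of LPS, SF3a1 siRNA raised 3 and lowered 3, with Fcgr1, an Fc receptor gene, at a mean of 456 CPM with control siRNA and 49.5 CPM with SF3a1 siRNA. Of all tested genes, LPS raised 13.8% and lowered 18.3%, SF3a1 siRNA alone raised 13.7% and lowered 20.1%, and SF3a1 siRNA with LPS raised 18.4% and lowered 20.4%, so that nothing is read from the counts with SF3a1 siRNA. The markers' part in the results was not tested. In these bulk libraries, fewer cells in S phase and less RNA per cell cannot be told apart.

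Libraries also differed in their read shares. Mitochondrial transcripts took 0.552 to 0.76% of the gene counts under control siRNA, against 0.908 to 1.53% under SF3a1 siRNA. Reads assigned to no gene feature were 17.8 to 19.8% and 18.2 to 27.2%. Such reads can lie inside introns of annotated genes as well as outside genes. Their share overlapped between the siRNA groups in the presence of LPS and did not in its absence. The highest value of both shares belonged to replicate 1 of SF3a1 siRNA without LPS. Their part was likewise not tested.

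Sequence around RefSeq starts of the members is shown because E2F proteins are known to bind short GC-rich letters near the start of replication genes. RefSeq (GRCm38.p6) windows of 250 bases before to 50 bases after a start were at hand for 34 of the 41 genes, 40 windows in all, and not for Ccne2, Gins1, Gins2, Gins4, Mcm4, Pole and Rfc2. The letters TTTCCCGC, TTTGGCGC, TTTCGCGC and TTTGCCGC, searched on both strands with overlaps allowed, were found in 13 of the 40 windows (32.5%) and in 744 of all 32851 windows (2.26%). The letters CCAAT were in 24 of the 40 (60%) and in 37.4% of all windows. By gene, 13 of 34 members had the E2F letters in at least 1 window, which were Cdc6, Cdt1, E2f2, Gins3, Lig1, Mcm3, Mcm5, Mcm6, Mcm7, Pola1, Pold1, Rfc3 and Uhrf1. The 250 bases before the RefSeq start are given 5′ to 3′ on the strand of the gene for 3 of them and for Mcm10. E2F letters are in capitals, and Mcm10 is 1 of the 21 members without the letters in their windows. A RefSeq start can lie inside the gene as annotated for exon lengths here. The windows of Cdc6, Dut and E2f1 are such cases, with the annotated Cdc6 gene starting at chr11:98907801. There, letters found or missing do not describe the sequence before the annotated gene. After LPS, 13 of the 13 members with the letters and 20 of the 21 without them were called lower, against 18.3% of all tested genes.
Mcm5, chr8:75109259-75109508, plus strand: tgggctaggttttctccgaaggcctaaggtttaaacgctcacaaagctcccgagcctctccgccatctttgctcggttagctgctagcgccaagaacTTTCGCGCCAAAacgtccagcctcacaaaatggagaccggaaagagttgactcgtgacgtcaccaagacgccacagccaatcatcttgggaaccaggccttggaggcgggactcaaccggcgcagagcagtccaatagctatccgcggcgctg
Mcm6, chr1:128359706-128359955, minus strand: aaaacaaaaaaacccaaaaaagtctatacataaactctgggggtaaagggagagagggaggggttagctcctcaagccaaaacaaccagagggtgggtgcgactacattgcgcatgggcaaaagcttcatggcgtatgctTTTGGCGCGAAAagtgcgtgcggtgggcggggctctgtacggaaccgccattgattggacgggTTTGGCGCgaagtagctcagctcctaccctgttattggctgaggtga
Cdc6, chr11:98907901-98908150, plus strand: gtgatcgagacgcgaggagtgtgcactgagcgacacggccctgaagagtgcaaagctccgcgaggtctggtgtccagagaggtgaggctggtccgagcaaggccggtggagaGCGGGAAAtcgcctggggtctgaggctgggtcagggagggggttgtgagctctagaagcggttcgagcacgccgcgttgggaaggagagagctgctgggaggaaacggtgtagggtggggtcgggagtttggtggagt
Mcm10, chr2:5012792-5013041, minus strand: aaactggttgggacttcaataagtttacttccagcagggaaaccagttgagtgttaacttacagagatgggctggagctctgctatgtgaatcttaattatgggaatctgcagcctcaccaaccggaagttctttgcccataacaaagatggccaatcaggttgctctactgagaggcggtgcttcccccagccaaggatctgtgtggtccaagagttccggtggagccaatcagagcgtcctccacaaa
In Mcm5 and Mcm6, 2 matches on opposite strands overlap, and in Mcm6 a further match lies nearer to the start. The searched window of Mcm10 ends in TTTGGCG, the letters TTTGGCGC without the last one, and a match across that edge would not be found. A match describes the letters of a window and no binding was measured here. Whether the letters go with the response to LPS was not tested.

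The effect of LPS was first compared in cells with control siRNA. LPS lowered 40 of the 41 members and raised 0, with a median log2 fold change of -1.50, against 18.3% of all tested genes called lower and a median of -0.02 over all tested genes. In 40 members every library with LPS was below every library without it, a pattern that 23.0% of the tested genes showed. DESeq2 also called 40 lower and 0 higher, and 0 members had a positive fold change at an unadjusted p under 0.05. E2f2 fell furthest, followed by Tk1 and Ccne2, and Mcm10 was the member that was not called. With library totals in place of TMM the median of all genes was -0.20, calls over all genes went from 2061 higher and 2748 lower to 1596 higher and 4187 lower, and 40 members were called lower, the same as with TMM. Leaving out 1 library at a time lost at most 1 call, that of Cdt1 or Tyms.

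SF3a1 inhibition in the absence of LPS also lowered 40 members and raised 0, with a median log2 fold change of -1.37 (all tested genes: -0.02, with 20.1% called lower). In 40 members the 3 SF3a1 siRNA libraries lay below all 3 control libraries, as in 25.4% of tested genes. Tk1 and Cdc45 fell furthest, and Cdt1 was the member not called at an adjusted p of 0.305. Cdt1 was called when the replicate number was added as a block (adjusted p = 0.0242), which brought the count to 41. DESeq2 called 39 lower, without Pcna, and 0 higher, and 0 members had a positive fold change at an unadjusted p under 0.05. Leaving out 1 library at a time kept 35 to 40 of the calls, and those lost were among Cdc6, E2f1, Pcna, Mcm3, Dut and Rfc1. This comparison and that of LPS share the libraries with control siRNA and no LPS.

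In the presence of LPS, SF3a1 inhibition lowered 13 members (20.4% of all tested genes were called lower) and raised 4 (18.4% called higher), and 24 were not called. Calls in both directions were also frequent among all tested genes, so that the number of calls is not read as a result about the members. The members called lower were Mcm10, Cdc45, Gins2, Gins4, Rfc4, Rfc5, Pola1, Pole, Prim1, Lig1, Rrm1, Tk1 and Rpa3, and those called higher were Mcm4, Gins3, Pcna and E2f2. The median log2 fold change was -0.40 against -0.04 for all tested genes. With the replicate number as a block, 20 were lower and 8 higher, against 26.3 and 24.6% of all tested genes. The 7 added as lower were Gins1, Pold1, Rrm2, Rpa2, Uhrf1, Chaf1a and Chaf1b, from -0.43 ± 0.18 for Chaf1a to -0.65 ± 0.23 for Uhrf1, and the 4 added as higher were Mcm3, Cdt1, Ccne1 and E2f1, from 0.27 ± 0.12 for Mcm3 to 0.49 ± 0.22 for Cdt1. Without replicate 1 of control siRNA with LPS, 7 were higher. The Rfc4 call was lost when any single library of these groups other than that one was left out, Gins3 without replicate 3 of control siRNA or replicate 1 of SF3a1 siRNA with LPS, Gins4 without replicate 3 and Pola1 without replicate 2 of control siRNA with LPS. This comparison shares the libraries with control siRNA and LPS with the LPS comparison above.

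With SF3a1 siRNA in place, LPS lowered 9 members and raised 0, with a median log2 fold change of -0.51 (all tested genes: 0.01, with 4.06% called lower). The 9 were Mcm6, Gins3, Rfc1, Pole, Lig1, Tk1, Rpa1, Chaf1b and E2f2. DESeq2 called 11 lower and 0 higher, and 0 members had a positive fold change at an unadjusted p under 0.05. The block raised the count to 24, when 9.48% of all tested genes were called lower, and library totals as scaling raised it to 18, under which the calls over all genes went from 989 higher and 609 lower to 820 higher and 1227 lower. The count was 4 without replicate 1 of SF3a1 siRNA without LPS, and 15 or 3 without replicate 1 or replicate 2 of SF3a1 siRNA with LPS.

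**Figure D1:**
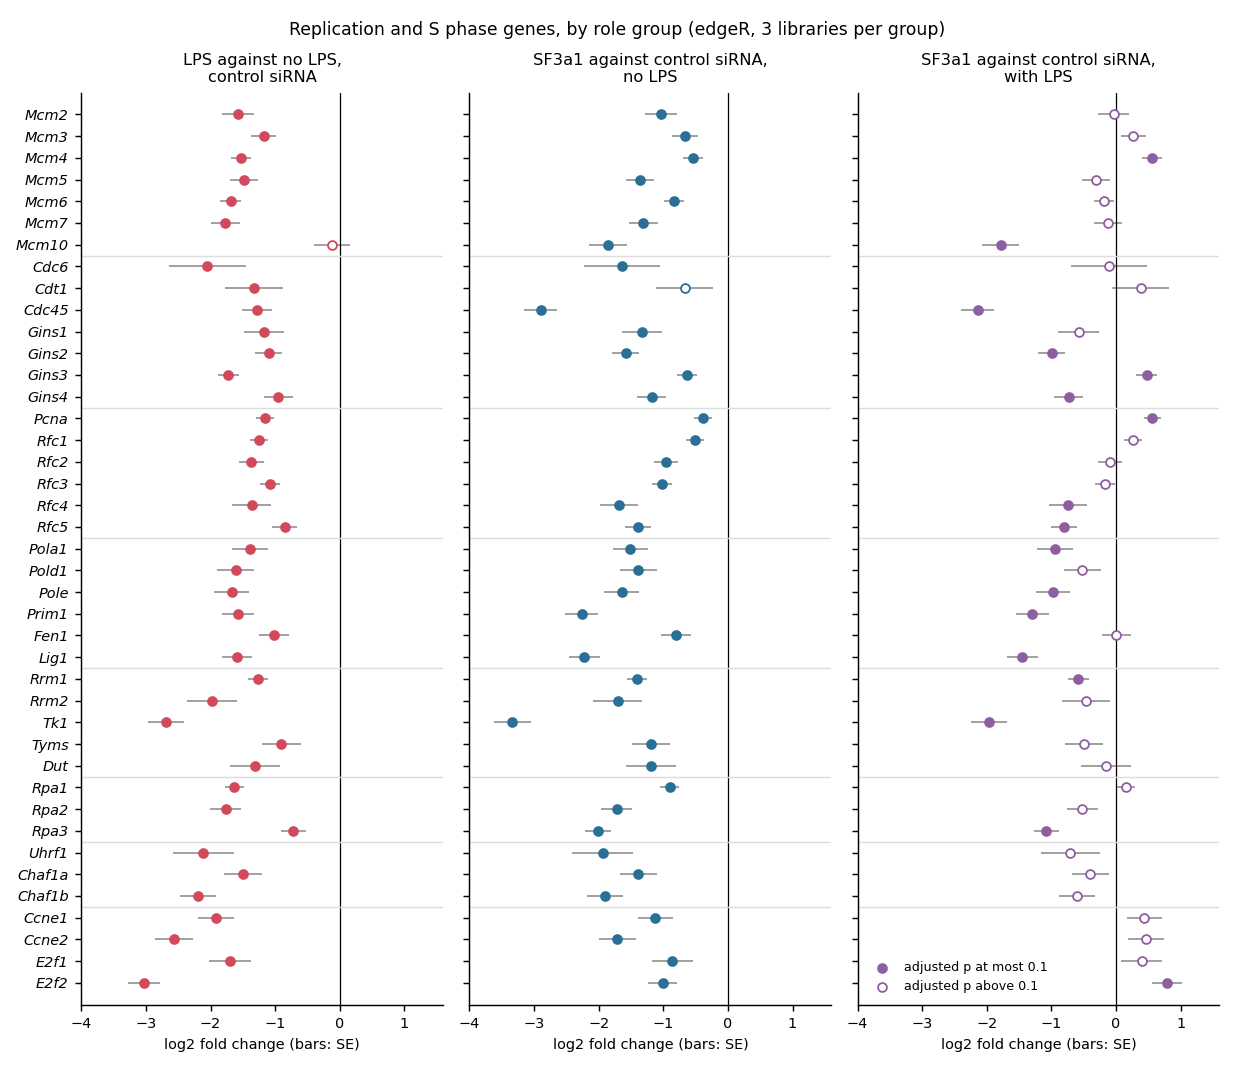
Log2 fold change (x axis, bars are standard errors) of each of the 41 genes (y axis, ordered by role group) in 3 comparisons of 3 libraries against 3, with filled points called at an adjusted p of at most 0.1. All points lie left of 0 in the first 2 panels, with Mcm10 and Cdt1 open, and in the third panel 13 filled points lie left of 0 and 4 right of it.

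Among the MCM helicase genes, the replicative helicase subunits Mcm2 to Mcm7 fell with LPS and with SF3a1 siRNA alone. Mcm5 was at 535, 556 and 476 CPM in replicates 1, 2 and 3 with control siRNA, at 195, 223 and 143 CPM after LPS, at 258, 182 and 168 CPM with SF3a1 siRNA and at 189.8, 137 and 127 CPM with both. The untreated libraries were the 3 highest and the other 3 groups overlapped one another. Its log2 fold change was -1.48 ± 0.22 with LPS (edgeR adjusted p = 0.000258) and -1.37 ± 0.22 with SF3a1 siRNA (adjusted p = 0.000672), and -0.31 ± 0.21 for SF3a1 siRNA in the presence of LPS, which was not called (adjusted p = 0.314). Mcm6 was at 401, 494 and 462 CPM untreated, 127, 170.4 and 123 CPM with LPS, 222, 276 and 266 CPM with SF3a1 siRNA and 124, 118 and 126 CPM with both. LPS took it down under control and SF3a1 siRNA, with log2 fold changes of -1.69 ± 0.16 and -1.05 ± 0.16 (adjusted p = 5.81e-06 and 0.000878).

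Mcm4 moved in opposite directions with SF3a1 siRNA depending on LPS. Without LPS it went from 245, 249 and 244 CPM to 183, 163 and 159 CPM, a log2 fold change of -0.55 ± 0.15 (adjusted p = 0.0184). With LPS it went from 92.3, 96.5 and 65.5 CPM to 137, 114 and 124 CPM, a log2 fold change of 0.56 ± 0.15 (adjusted p = 0.0142). Neither pair of groups overlapped. Mcm7 was at 176, 136 and 126 CPM untreated, 45.5, 45.3 and 37.6 CPM with LPS, 79.3, 44.5 and 52.7 CPM with SF3a1 siRNA and 48, 33.4 and 36.3 CPM with both. Its untreated libraries were the 3 highest, and in the presence of LPS the libraries with control and SF3a1 siRNA overlapped. For Mcm2, Mcm3 and Mcm7 the log2 fold changes with LPS were -1.57 ± 0.25, -1.18 ± 0.20 and -1.77 ± 0.23. With SF3a1 siRNA alone they were -1.03 ± 0.24, -0.67 ± 0.20 and -1.31 ± 0.22, and all of these were called. None of these 3 was called for SF3a1 siRNA in the presence of LPS. With the replicate block, Mcm3 was called higher there (0.27 ± 0.12, edgeR adjusted p = 0.0879).

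Mcm10, which helps the loaded helicase to start, was at 116, 104 and 96 CPM untreated and at 89.1, 109 and 91.8 CPM with LPS, and these groups overlapped (log2 fold change -0.13 ± 0.28, adjusted p = 0.8). With SF3a1 siRNA it was at 40.6, 21.9 and 24.8 CPM without LPS and 41, 17.7 and 25 CPM with LPS, below every control siRNA library. The log2 fold changes of -1.86 ± 0.29 and -1.79 ± 0.29 (adjusted p = 0.000604 and 0.000644) differed by 0.07 ± 0.40 (test of the difference, adjusted p = 0.984).

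Of the genes for origin licensing and helicase activation, Cdc45 showed the largest response to SF3a1 siRNA. It was at 68.7, 76.7 and 70.05 CPM untreated, 26.9, 32.8 and 29 CPM with LPS, 14, 6.74 and 7.89 CPM with SF3a1 siRNA and 8.12, 5.62 and 6.21 CPM with both. The control siRNA libraries were all above the SF3a1 siRNA libraries, and the log2 fold change was -2.90 ± 0.25 without LPS and -2.14 ± 0.25 with LPS (adjusted p = 2.07e-05 and 8.37e-05). The 4 GINS subunits join the helicase to the polymerases, and they were not tested against one another. Gins2 was at 44.8, 53.6 and 46 CPM untreated, 18.1, 27.2 and 22.1 CPM with LPS, 20.2, 14.3 and 13.7 CPM with SF3a1 siRNA and 12.1, 12.6 and 9.1 CPM with both. Neither siRNA pair overlapped, and Gins2 and Gins4 fell with SF3a1 siRNA in the absence (-1.58 ± 0.21 and -1.18 ± 0.22) and the presence of LPS (-0.99 ± 0.21 and -0.73 ± 0.22). Gins3 fell without LPS, from 58.8, 59.4 and 70.5 CPM to 36.7, 46.1 and 38.8 CPM, and rose with LPS, from 21.1, 19.2 and 16.8 CPM to 30.6, 22.6 and 26.1 CPM (log2 fold change 0.48 ± 0.16, adjusted p = 0.0411). Gins1 fell with LPS (-1.17 ± 0.31) and with SF3a1 siRNA alone (-1.33 ± 0.31).

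The loading factor Cdc6 differed widely among replicates. It was at 63.6, 52.5 and 52.8 CPM untreated and 27.9, 7.95 and 4.09 CPM with LPS, and at 28.6, 12.6 and 12.6 CPM and 20.9, 8.04 and 8.52 CPM in the corresponding SF3a1 siRNA groups. Replicate 1 was the highest library of each of the 4 groups. Its log2 fold change was -2.05 ± 0.60 with LPS and -1.64 ± 0.59 with SF3a1 siRNA alone (adjusted p = 0.0225 and 0.0576), and the latter call was lost without any 1 of the 3 untreated libraries or replicate 2 or 3 of SF3a1 siRNA. Cdt1, the other loading factor, was at 204, 148 and 132 CPM untreated, 116, 48.3 and 27.2 CPM with LPS, 134, 81.8 and 88.3 CPM with SF3a1 siRNA and 126, 64.9 and 59.2 CPM with both. Without LPS the control and SF3a1 siRNA libraries overlapped. Cdt1 fell with LPS, with a log2 fold change of -1.33 ± 0.45 (adjusted p = 0.0453), and this call was lost without replicate 1 of untreated control siRNA or without replicate 2 or 3 of control siRNA with LPS.

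The sliding clamp Pcna kept most of its level under SF3a1 siRNA. It was at 232, 222 and 234 CPM untreated and 198, 168 and 159.9 CPM with SF3a1 siRNA, a log2 fold change of -0.39 ± 0.13 (adjusted p = 0.0477). Pcna was not called with DESeq2, with DESeq2's size factors or without the filter on counts. It was also not called without any 1 of the 3 untreated libraries or replicate 2 or 3 of SF3a1 siRNA. With LPS it was at 101, 101 and 107 CPM under control siRNA and at 169, 156 and 130.3 CPM under SF3a1 siRNA, so that in the presence of LPS it was higher with SF3a1 siRNA in all 3 libraries (log2 fold change 0.56 ± 0.13, adjusted p = 0.00678). Of the clamp loader subunits, Rfc4 and Rfc5 fell with SF3a1 siRNA in the presence of LPS (-0.74 ± 0.30 and -0.80 ± 0.20), and Rfc1, Rfc2 and Rfc3 were at 0.27 ± 0.14, -0.09 ± 0.19 and -0.17 ± 0.15 and not called. All 5 fell with LPS, with log2 fold changes from -0.86 ± 0.20 for Rfc5 to -1.37 ± 0.19 for Rfc2, and with SF3a1 siRNA alone, from -0.51 ± 0.14 for Rfc1 to -1.68 ± 0.30 for Rfc4. Rfc1, the largest subunit, was at 108, 107 and 108 CPM untreated, 48.3, 45.6 and 41.9 CPM with LPS, 75.7, 71.6 and 79.8 CPM with SF3a1 siRNA and 63, 43.9 and 56.5 CPM with both. LPS libraries lay below those without LPS under either siRNA, while in the presence of LPS the siRNA groups overlapped. Rfc3 was at 48.7, 60.2 and 64.3 CPM untreated, 26.1, 24.1 and 31.5 CPM with LPS, 29.2, 28.3 and 27.9 CPM with SF3a1 siRNA and 25.4, 23 and 24.1 CPM with both.

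Genes for the polymerases, primase and strand joining fell in both single treatments. With LPS, log2 fold changes went from -1.02 ± 0.23 for Fen1 to -1.67 ± 0.27 for Pole. With SF3a1 siRNA alone they went from -0.81 ± 0.23 for Fen1 to -2.26 ± 0.26 for Prim1. In the presence of LPS, 4 of these 6 fell with SF3a1 siRNA, where 20.4% of all tested genes were called lower. Lig1, the ligase that seals the newly made fragments, was at 275, 248 and 248 CPM untreated, 65.3, 109 and 82.7 CPM with LPS, 75.8, 43.7 and 45.5 CPM with SF3a1 siRNA and 36.9, 27.3 and 29.5 CPM with both. The groups with LPS alone and with both did not overlap, and the log2 fold change between them was -1.45 ± 0.24 (adjusted p = 0.000662). Prim1, the catalytic primase subunit, was at 44, 53.7 and 59.1 CPM untreated, 10.3, 20.7 and 21.7 CPM with LPS, 12.5, 10.4 and 9.6 CPM with SF3a1 siRNA and 7.03, 6.95 and 7.36 CPM with both, with a log2 fold change of -2.26 ± 0.26 for SF3a1 siRNA alone (adjusted p = 8.57e-05). Pole was at 85.7, 95.1 and 80.4 CPM untreated, 20.5, 35.4 and 26.3 CPM with LPS, 38.7, 24 and 20.5 CPM with SF3a1 siRNA and 15.2, 10.1 and 16.1 CPM with both. In each of the 4 comparisons of this gene the second group lay below the first without overlap. The catalytic subunits of polymerases alpha and epsilon, Pola1 and Pole, fell with SF3a1 siRNA in the presence of LPS (-0.94 ± 0.28 and -0.98 ± 0.27). Pold1, that of polymerase delta, and the flap nuclease Fen1 were at -0.52 ± 0.28 and 0.00 ± 0.23 and not called. With the replicate block, Pold1 was called lower (-0.55 ± 0.17, edgeR adjusted p = 0.0217).

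Among the 5 genes of nucleotide supply, thymidine kinase Tk1 fell furthest in both single treatments. It was at 125, 146 and 156 CPM untreated, 12.2, 29.4 and 25.3 CPM with LPS, 16.6, 12.3 and 13.2 CPM with SF3a1 siRNA and 6.69, 5.2 and 5.0 CPM with both, and the group with both treatments lay below every other library. The mean left was 15.7% of the untreated mean with LPS and 9.86% with SF3a1 siRNA, with log2 fold changes of -2.69 ± 0.28 and -3.34 ± 0.29 (adjusted p = 1.38e-05 and 1.87e-05). The ribonucleotide reductase subunits Rrm1 and Rrm2 fell with LPS (-1.26 ± 0.16 and -1.98 ± 0.38) and with SF3a1 siRNA alone (-1.40 ± 0.16 and -1.71 ± 0.38). Rrm1 was at 435, 424 and 406 CPM untreated, 154, 205 and 168 CPM with LPS, 192, 148 and 138 CPM with SF3a1 siRNA and 129, 108 and 115 CPM with both, and Rrm2 at 361, 254 and 234 CPM untreated, 76.7, 78 and 60.3 CPM with LPS, 134, 68.3 and 58 CPM with SF3a1 siRNA and 86.3, 34.1 and 35.4 CPM with both. With LPS, the siRNA groups were apart for Rrm1 and overlapped for Rrm2. Thymidylate synthase Tyms and the dUTPase Dut fell in both single treatments (log2 fold changes of -0.90 ± 0.29 and -1.31 ± 0.38 with LPS and -1.19 ± 0.30 and -1.19 ± 0.38 with SF3a1 siRNA), and neither was called for SF3a1 siRNA in the presence of LPS. The Tyms call for LPS was lost without replicate 2 or 3 of untreated control siRNA.

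The 3 subunits of RPA form 1 complex, and their values are given side by side, with no test between them. Rpa1 was at 246, 305 and 269 CPM untreated, 78.8, 106 and 80.4 CPM with LPS, 161, 135 and 143 CPM with SF3a1 siRNA and 105, 89.4 and 99.4 CPM with both. Rpa2 was at 146, 150.1 and 156 CPM untreated, 55.3, 39.6 and 38 CPM with LPS, 57.7, 40.1 and 39.1 CPM with SF3a1 siRNA and 42.9, 26.5 and 22.8 CPM with both. Rpa3 was at 47.2, 40.8 and 43.7 CPM untreated, 24.2, 21.3 and 34.5 CPM with LPS, 11.8, 10.03 and 10.8 CPM with SF3a1 siRNA and 11.4, 14.7 and 11.8 CPM with both. With LPS, the siRNA groups overlapped for Rpa1 and Rpa2, and all 3 SF3a1 siRNA libraries were lower for Rpa3. The fall with LPS was -1.63 ± 0.15 for Rpa1 and -0.72 ± 0.19 for Rpa3, and with SF3a1 siRNA alone -0.90 ± 0.15 and -2.01 ± 0.20, all called. In the presence of LPS the SF3a1 siRNA changes were 0.15 ± 0.15 (adjusted p = 0.504), -0.53 ± 0.24 for Rpa2 (adjusted p = 0.117, and -0.55 ± 0.16 with adjusted p = 0.0139 with the replicate block, lower in each of the 3 pairs) and -1.08 ± 0.19 (adjusted p = 0.00111).

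The chromatin genes, Uhrf1, which brings the maintenance DNA methyltransferase to new strands, and Chaf1a and Chaf1b, which place histones on them, fell in both single treatments. Chaf1b was at 69.3, 64.1 and 64.3 CPM untreated, 16.5, 14.9 and 11.6 CPM with LPS, 24, 14.4 and 14.4 CPM with SF3a1 siRNA and 13.7, 7.25 and 7.17 CPM with both. The untreated libraries stood apart from all others, and the log2 fold changes were -2.20 ± 0.28 with LPS and -1.90 ± 0.28 with SF3a1 siRNA (adjusted p = 7.98e-05 and 0.000372). Uhrf1 was at 246, 205 and 189 CPM untreated, 85, 37.9 and 24.2 CPM with LPS, 85.2, 38.2 and 43.1 CPM with SF3a1 siRNA and 47.8, 17.7 and 24.8 CPM with both, a log2 fold change of -2.11 ± 0.47 with LPS. Chaf1a was at 206, 185 and 172 CPM untreated, 80.8, 72.7 and 45.3 CPM with LPS, 91.2, 59.7 and 64.6 CPM with SF3a1 siRNA and 74.8, 34.7 and 41.2 CPM with both, a log2 fold change of -1.50 ± 0.29 with LPS. For both, the untreated libraries were the 3 highest, and the siRNA groups overlapped in the presence of LPS. None of the 3 was called for SF3a1 siRNA in the presence of LPS, and all 3 were called lower there with the replicate block.

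The 4 genes of cyclin E and E2F are regulators of entry into S phase. Their median log2 fold change was -2.24 with LPS and -1.07 with SF3a1 siRNA alone. With SF3a1 siRNA in the presence of LPS it was 0.45. There 1 of the 4 was called higher, against 18.4% of all tested genes. E2f2 was at 98.2, 94.4 and 81 CPM untreated and 15.9, 8.98 and 8.36 CPM with LPS, 12.2% of the untreated mean (log2 fold change -3.02 ± 0.25, adjusted p = 1.76e-06). With SF3a1 siRNA it was at 42.3, 50.6 and 43 CPM without LPS and 23.7, 16.7 and 17.3 CPM with LPS. It was thus lower with SF3a1 siRNA in the absence of LPS (-1.01 ± 0.23, adjusted p = 0.00586) and higher in its presence (0.78 ± 0.23, adjusted p = 0.0226), with no overlap in either case. Ccne2 was at 51.3, 64.2 and 63.8 CPM untreated, 14, 8.35 and 7.63 CPM with LPS, 23.3, 14.9 and 16.3 CPM with SF3a1 siRNA and 18.3, 9.55 and 13.8 CPM with both. The untreated libraries were the 3 highest, and the siRNA groups overlapped in the presence of LPS (log2 fold change 0.47 ± 0.28, adjusted p = 0.242). Ccne1 was at 92.2, 99.2 and 96.5 CPM untreated, 35.3, 23.2 and 17.2 CPM with LPS, 53.7, 34.3 and 43.9 CPM with SF3a1 siRNA and 47, 27.5 and 28.3 CPM with both, with the same order of groups. Ccne1 and E2f1 fell with LPS (-1.92 ± 0.28 and -1.70 ± 0.32) and with SF3a1 siRNA alone (-1.13 ± 0.27 and -0.86 ± 0.32), the E2f1 call of the latter being lost when any of the 3 untreated libraries or replicate 2 or 3 of SF3a1 siRNA was left out. In the presence of LPS, the SF3a1 siRNA values of Ccne1 and E2f1 were 0.44 ± 0.27 and 0.40 ± 0.32 (edgeR adjusted p = 0.254 and 0.387), and both were called higher with the replicate block.

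**Figure D2:**
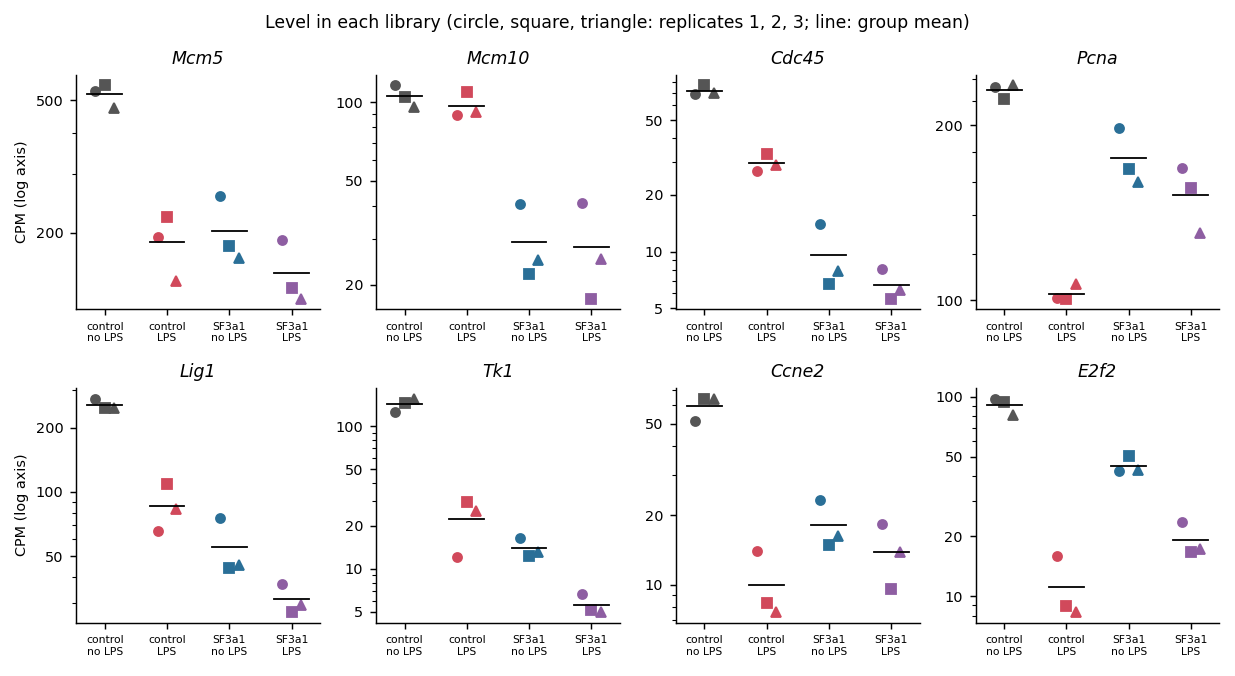
CPM (y axis, log scale) of 8 genes in each of the 12 libraries, by siRNA and LPS (x axis), with circles, squares and triangles for replicates 1, 2 and 3 and a line at the group mean. Mcm10 and Cdc45 stay low with SF3a1 siRNA whether or not LPS was given, and Pcna and E2f2 are higher with SF3a1 siRNA than with control siRNA in the presence of LPS.

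Levels per length give the order of the members in untreated cells, as mean CPM per kilobase of exon. Mcm5 was highest at 131, followed by Mcm3 at 107, Rrm2 at 102 and Fen1 at 100.1, and Pole and Pola1 were lowest at 7.8 and 7.11. Of the members, 13 share exonic bases with another gene, over 84.2% of the exon length in Fen1, 67.3% in Gins2 and 52.5% in Chaf1a and at most 17.4% in the others. Whether counting used strand is not stated, so the values of Fen1, Gins2 and Chaf1a are uncertain.

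Whether SF3a1 inhibition acted differently in the presence of LPS was tested as the difference between its log2 fold changes with and without LPS. This difference was above 0 for all 41 members, and 12 of them were called (1.54% of all tested genes were called higher), with a median of 0.95 against 0.04 for all tested genes. The 12 were Ccne2 (2.18 ± 0.40, edgeR adjusted p = 0.017), E2f2 (1.79 ± 0.33, adjusted p = 0.017), Ccne1, Tk1, Mcm7, Gins3, Mcm4, Rpa1, Pcna, Rfc3, Rrm1 and Rfc1, from 1.56 ± 0.38 for Ccne1 down to 0.78 ± 0.20 for Rfc1. The same 4 groups give the difference between the LPS effects with SF3a1 and with control siRNA, so that a positive value also says that the LPS effect was less negative under SF3a1 siRNA. For Tk1 both SF3a1 siRNA effects were negative, and for E2f2, Mcm4, Gins3 and Pcna they had opposite signs, each called. The count rose to 30 with the replicate block, when 6.54% of all tested genes were called higher, and fell to 6 or 7 when any 1 untreated control siRNA library, replicate 2 or 3 of SF3a1 siRNA without LPS or replicate 1 of SF3a1 siRNA with LPS was left out. With library totals, which moved the median of all genes to 0.10, calls over all genes went from 230 higher and 290 lower to 345 higher and 293 lower, and 17 members were called. With RLE scaling they went to 172 higher and 306 lower, and 8 members were called, without Mcm7, Rfc1, Rrm1 and Tk1. DESeq2 called 18, and 29 had a positive difference at an unadjusted p under 0.05, with 0 called lower by edgeR or DESeq2.

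**Figure D3:**
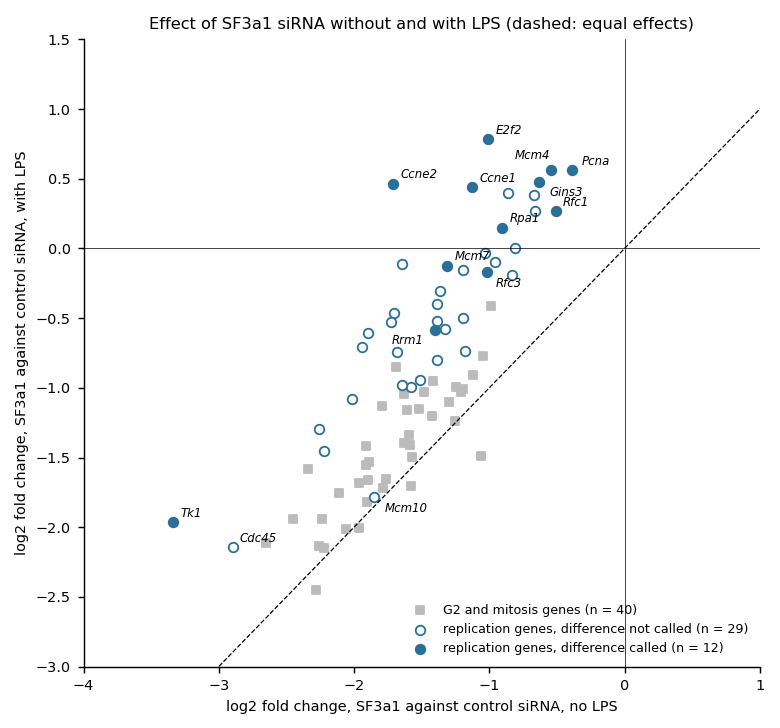
Log2 fold change with SF3a1 siRNA in the absence (x axis) and presence (y axis) of LPS for the 41 replication genes and 40 genes of G2 and mitosis, with the 12 replication genes whose difference was called filled in. All 41 replication genes lie above the dashed line of equal effects, with Mcm10 nearest to it.

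Genes of the same pathway outside the 41 were described from lists, whose counts stand beside the shares of all tested genes called lower and higher. These shares were 18.3 and 13.8% for LPS, 20.1 and 13.7% for SF3a1 siRNA alone, 20.4 and 18.4% for SF3a1 siRNA with LPS, 4.06 and 6.60% for LPS with SF3a1 siRNA and 1.94 and 1.54% for the difference. With the replicate block the last pairs were 9.48 and 11.3% and 5.18 and 6.54%. Of 51 other replication genes, LPS lowered 34 and raised 2 (median log2 fold change -0.88), with the largest falls in Dscc1 (-2.55 ± 0.36), Gmnn (-2.36 ± 0.20), Wdhd1 (-2.30 ± 0.24) and Clspn (-2.04 ± 0.35). SF3a1 siRNA alone lowered 44 and raised 0 (median -1.38), led by Wdhd1 (-2.66 ± 0.24), Dscc1 (-2.30 ± 0.35), the histone chaperone Asf1b (-2.29 ± 0.24) and the maintenance DNA methyltransferase Dnmt1 (-2.17 ± 0.35). In cells given LPS, SF3a1 siRNA lowered 32 and raised 3, led by the topoisomerase Top2a (-1.88 ± 0.28), Mcm8 (-1.74 ± 0.36), Timeless (-1.70 ± 0.27) and Dnmt1 (-1.54 ± 0.34). LPS with SF3a1 siRNA lowered 5, with Dscc1, Dnmt1, Clspn and Gmnn between -1.15 ± 0.37 and -1.06 ± 0.20, and raised 1. The difference between the SF3a1 siRNA effects was called higher in 8, led by Cdca7 (1.59 ± 0.23), the origin-firing kinase Cdc7 (1.31 ± 0.22), Gmnn (1.30 ± 0.28), the inhibitor of Cdt1, and Wdhd1 (1.28 ± 0.33). With the replicate block, LPS with SF3a1 siRNA lowered 13 and raised 3, and the difference was called higher in 23. DESeq2 also called 0 higher with SF3a1 siRNA alone, as did edgeR at an unadjusted p under 0.05, and called the difference higher in 8 and lower in 1.

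Of 28 replication stress and repair genes, LPS lowered 21 and raised 0 (1 was raised with DESeq2 and 1 at an unadjusted p under 0.05), and those lowered included the mismatch repair gene Msh6 (-2.23 ± 0.16), Brca1 (-2.16 ± 0.37) and Tonsl (-2.03 ± 0.36). SF3a1 siRNA alone lowered 23 and raised 0 (0 with DESeq2, 0 at an unadjusted p under 0.05 and 1 with the replicate block), with the Fanconi anemia genes Fancd2 (-2.74 ± 0.25), Fanci (-2.47 ± 0.36) and Fanca (-2.42 ± 0.34) and the histone gene H2afx (-2.40 ± 0.27) in front. In the presence of LPS it lowered 17 and raised 3, with Fancd2 (-2.30 ± 0.25), Fanci (-2.26 ± 0.37), Brca2 (-1.97 ± 0.30) and Rad54l (-1.93 ± 0.28) lowest. LPS with SF3a1 siRNA lowered 10, among them Brca2 (-1.25 ± 0.30), Fanci (-1.22 ± 0.37) and Msh6 (-1.07 ± 0.16). The difference was called higher in 6, among them Exo1 (1.31 ± 0.27), the checkpoint kinase Chek1 (1.22 ± 0.29) and Msh6 (1.16 ± 0.22), and in 12 with the replicate block.

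Of 32 listed genes that control the step from G1 to S, 28 were tested. LPS lowered 16 and raised 3, and SF3a1 siRNA alone lowered 15 and raised 6, with nothing read from the counts raised, which are near the shares of all tested genes. Cdkn1a, the CDK inhibitor p21, was at 226, 247 and 209 CPM untreated, 607, 785 and 723 CPM with LPS, 1389, 1377 and 1222 CPM with SF3a1 siRNA and 1943, 2018 and 1779 CPM with both. The 4 groups did not overlap one another, and SF3a1 siRNA alone raised it by 2.55 ± 0.14 on the log2 scale (adjusted p = 4.03e-06). The growth regulator Myc was at 10.7, 14.1 and 9.5 CPM untreated, 202, 209 and 127 CPM with LPS, 82.4, 56.3 and 86.1 CPM with SF3a1 siRNA and 315, 197 and 203 CPM with both, a rise of 3.97 ± 0.28 with LPS and 2.71 ± 0.27 with SF3a1 siRNA. Cyclin D2, Ccnd2, rose with LPS (5.57 ± 0.76), and E2f8 and Tfdp2, a repressor and a partner of the E2F family, fell (-2.84 ± 0.36 and -2.57 ± 0.26). Under SF3a1 siRNA alone, Fbxo5 and E2f8 fell (-2.22 ± 0.32 and -2.15 ± 0.35). In the presence of LPS, SF3a1 siRNA lowered 8 and raised 7, where 20.4% of all tested genes were lowered and 18.4% raised, so that nothing is read from these counts about the list. Called genes were the pocket protein Rbl2 (2.05 ± 0.22), Ccnd2 (-1.83 ± 0.60), the CDK inhibitor Cdkn2d (-1.78 ± 0.24) and cyclin A2, Ccna2 (-1.50 ± 0.29). LPS with SF3a1 siRNA lowered 7 and raised 2, with Myc up (1.67 ± 0.26) and Ccna2, Tfdp2 and Rb1 down (-0.97 ± 0.29, -0.93 ± 0.25 and -0.88 ± 0.28). With the replicate block the latter counts were 11 and 3. The difference was called higher in 7 and lower in 3 (13 and 3 with the block), which included Ccnd2 (-3.80 ± 0.99), Myc (-2.30 ± 0.36), E2f8 (1.88 ± 0.49) and Tfdp2 (1.64 ± 0.35).

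Genes of G2 and mitosis, which act later in the cell cycle, were set beside the replication genes. LPS lowered 33 of 40 (median log2 fold change -0.87), most in Ncapd2 (-1.45 ± 0.22), Mki67 (-1.42 ± 0.35), Ccnf (-1.35 ± 0.26) and Cdca3 (-1.31 ± 0.22). SF3a1 siRNA lowered all 40 without LPS (median -1.66) and 39 with LPS (median -1.45). Of the 41 replication genes it lowered 40 without LPS (median -1.37) and 13 with LPS (median -0.40). The replicate block added 7 to these 13. Of all tested genes, 20.1% were called lower without LPS and 20.4% with LPS, and nothing is read from the 13. The largest falls were in Birc5 (-2.65 ± 0.29), Aurkb (-2.45 ± 0.24), Cdca3 (-2.34 ± 0.22) and Kif23 (-2.28 ± 0.32) without LPS, and in Kif23 (-2.45 ± 0.32), Ttk (-2.15 ± 0.23), Cdc25c (-2.13 ± 0.23) and Birc5 (-2.11 ± 0.29) with LPS. With SF3a1 siRNA in place, LPS lowered 11, led by Mki67 (-1.31 ± 0.35), Ttk (-1.05 ± 0.23), Kif23 (-0.98 ± 0.31) and Ncapd2 (-0.95 ± 0.22). The difference between the SF3a1 siRNA effects was called in 0 of the 40 by edgeR, with 2 of them at an unadjusted p under 0.05 and 0 called by DESeq2, and had a median of 0.24. With 1.54% of all tested genes called higher and 1.94% lower, nothing is read from a 0 in a list of this size. The replicate block gave 0 as well for this difference, and 21 for LPS with SF3a1 siRNA. Without replicate 2 of SF3a1 siRNA with LPS or replicate 1 of SF3a1 siRNA without LPS, the latter count was 3, and without replicate 3 of SF3a1 siRNA with LPS it was 6. The difference between the lists was not tested.

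In each library, the members' median level relative to the untreated mean shows how the replicates spread. It was 30.2 to 40.6% after LPS, 34.4 to 47.1% with SF3a1 siRNA and 26.2 to 30.6% with both. The corresponding medians of the mitosis genes were 35.1 to 67%, 26.1 to 36.2% and 18.3 to 22.4%. After LPS, replicate 1 was the lowest library for the mitosis genes and replicate 3 for the replication genes.

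**Figure D4:**
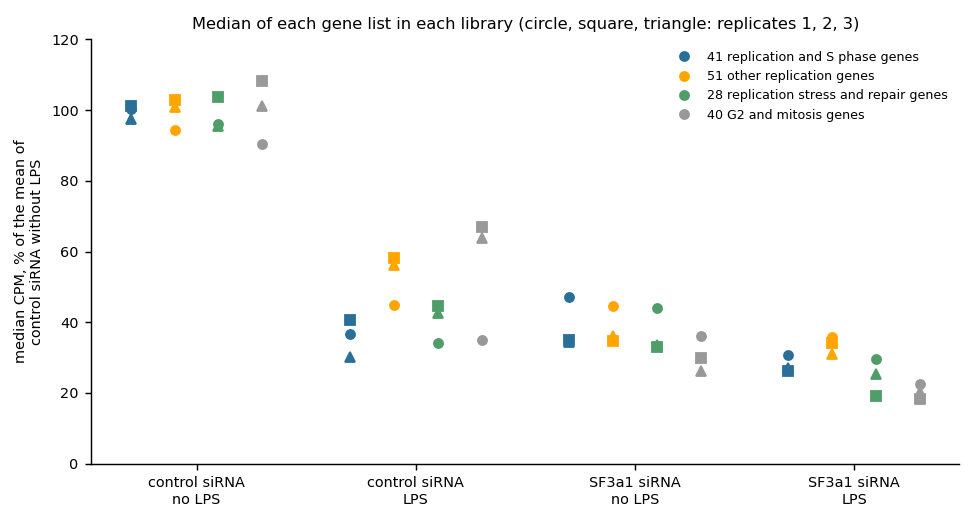
Median level of 4 gene lists in each of the 12 libraries, as percent of the mean of control siRNA without LPS (y axis), by siRNA and LPS (x axis), with circles, squares and triangles for replicates 1, 2 and 3. The replication genes lie at 30.2 to 40.6% after LPS and at 26.2 to 30.6% with both treatments, and the mitosis genes are lowest with both treatments, at 18.3 to 22.4%.

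Because SF3a1 is a splicing factor, the use of exon bins within each member was compared as well. Exon bins are the smallest stretches of annotated exons, and a bin was called when its share of the gene's counts changed (edgeR diffSpliceDGE, adjusted p of at most 0.1 over all bins). All 41 members were tested, with 753 bins, in 11 libraries, without replicate 3 of control siRNA with LPS, whose bins were not used here. LPS with control siRNA gave 0 members with a called bin (0.462% of all 10609 genes tested had one), with 6 bins at an unadjusted p under 0.05, and limma's diffSplice also gave 0. LPS with SF3a1 siRNA gave 0 as well (0.104% of genes), with 18 bins at an unadjusted p under 0.05, and 0 with limma.

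SF3a1 siRNA without LPS gave 1 member with a called bin, against 6.16% of all genes tested. This was bin 23 of 33 in Chaf1b, whose position is not given here, with 0.263, 0.176 and 0.37% of the gene's bin counts in the untreated libraries and 2.48, 1.28 and 2.24% with SF3a1 siRNA, with no overlap (log2 fold change relative to the gene 2.98, adjusted p = 0.00855). These shares rest on 4 to 12 and 5 to 26 counts per library. The call was lost without replicate 2 of untreated control siRNA, without replicate 1 of SF3a1 siRNA, with replicates 2 and 3 only and with at least 10 counts in every library of a group, and the replicate block gave 4 members, against 11.5% of all genes tested. With that count minimum the 1 member called was instead Prim1, in bin 13 of 24, a retained intron with 39, 24 and 35 counts in the untreated libraries and 0, 1 and 0 with SF3a1 siRNA. Over all bins with the usual filter its log2 fold change relative to the gene was -3.50 and it was not called (adjusted p = 0.151).

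SF3a1 siRNA with LPS also gave 1 member, against 5.03% of all genes tested. This was bin 34 of 40 in Mcm7, chr5:138170810-138171017 (mm10, minus strand), a stretch of 208 bases inside an intron of the gene. It had 0 and 0 counts in the 2 libraries with control siRNA and LPS and 7, 5 and 5 counts in replicates 1, 2 and 3 with SF3a1 siRNA and LPS (adjusted p = 0.0744). Without LPS it had 24, 6 and 4 counts with control siRNA and 21, 2 and 8 counts with SF3a1 siRNA. As shares of all Mcm7 bin counts, these were 0.173, 0.122 and 0.0778% against 0.548, 0.151 and 0.645%, and the groups overlapped. Relative to the gene, the bin's log2 fold change there was 1.84 and not called (edgeR diffSpliceDGE adjusted p = 0.57). With LPS it was 5.87, in the same direction and called. The call was lost at an adjusted p of 0.05, with limma, with at least 10 counts in every library of a group, without replicate 1 or 2 of control siRNA with LPS and without replicate 2 or 3 of SF3a1 siRNA with LPS, and the block gave 2 members, against 10.4% of all genes tested. Leaving out either library of control siRNA with LPS leaves 1 in that group, which is then assumed to vary like the other groups. Bins at an unadjusted p under 0.05 made up 0.797% of the members' bins and 1.97% of all bins for LPS, 2.66 and 3.39% for SF3a1 siRNA without LPS, 1.99 and 3.99% for SF3a1 siRNA with LPS, and 2.39 and 1.29% for LPS with SF3a1 siRNA.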

How the data were processed

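Per the labels and methods, RNA of RAW264.7 cells was sequenced on an Ion Proton, and the authors aligned reads to mm10 with GSNAP, kept uniquely mapped reads, and deposited raw counts per Ensembl gene (HTSeq, intersection-nonempty) and per exon bin (the DEXSeq counting script). Strand use is not stated. The gene counts of 12 libraries (12746019 to 41091887 per library) and the bin counts of 11 were used here. Gene counts were scaled by TMM, filtered with filterByExpr (14983 of 38215 genes kept) and tested with edgeR 4.0.16 quasi-likelihood F-tests over all 4 groups, at a Benjamini-Hochberg adjusted p of at most 0.1. Bins were tested with edgeR's diffSpliceDGE. Alternatives used DESeq2 1.42.0, limma 3.58.1, other scalings, filters and thresholds, a replicate block and fewer libraries. The tests were checked on simulated counts drawn independently for each library. These had no replicate effect, so the check does not cover the pairing described next. Replicates are labelled as biological, and the replicate numbers pair the libraries: deviations from group means correlated above 0.1 in all 18 same-number pairs (r of 0.143 to 0.600) and in 10 of 36 pairs with other numbers (r of -0.523 to 0.345). The main fit had no replicate block, because the study's methods name none, so its calls and standard errors ignore this pairing. A member not called in the main fit can therefore be called with the block. The members and lists were chosen with earlier results of these data known. All 41 members were named, with values per library for at least the 3 of smallest adjusted p in each role group, and of the other lists the 4 called genes with the largest fold changes per comparison, except that some genes this rule names are not reported here. Analysis used R 4.3.3 and Python 3.11.15.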

Additional observations from a re-analysis of the deposited data

Results flagged for a closer look

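For 12 of the 41 genes the effect of SF3a1 siRNA on the log2 scale differed between cells with and without LPS in edgeR's quasi-likelihood test of that difference (Benjamini-Hochberg adjusted p of at most 0.1 over all genes). Of all tested genes, 1.54% were called higher and 1.94% lower in that test. The difference, as the effect with LPS minus the effect without it, was 2.18 for Ccne2, 1.79 for E2f2, 1.56 for Ccne1, 1.37 for Tk1, 1.19 for Mcm7, 1.11 for Gins3, 1.11 for Mcm4, 1.05 for Rpa1, 0.95 for Pcna, 0.85 for Rfc3, 0.82 for Rrm1 and 0.78 for Rfc1. The calls of Ccne2, E2f2, Mcm4, Pcna, Rpa1 and Gins3 were also made at an adjusted p of 0.05. The mitochondrial share of counts was higher in every SF3a1 siRNA library than in every control siRNA library, and its part in these differences was not tested.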

How the results depend on the processing

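LPS with control siRNA lowered 39 to 40 members and SF3a1 siRNA without LPS 35 to 41 under every alternative run. Counts in the presence of both treatments depended on the processing. For SF3a1 siRNA with LPS, 8 members were higher and 20 lower with the replicate block, 7 and 23 with replicates 2 and 3 only, and 3 to 7 higher when 1 library was left out. LPS with SF3a1 siRNA lowered 18 with library totals, 14 without the filter, 24 with the block, 19 with replicates 2 and 3 only, and 3 to 15 without 1 library. The difference between the SF3a1 siRNA effects was called in 6 at an adjusted p of 0.05, 8 with RLE scaling, 28 without the filter, 30 with the block, 28 with replicates 2 and 3 only, and 6 to 17 without 1 library. With at least 10 counts in every library of a group, the 1 member with a called bin for SF3a1 siRNA without LPS was Prim1 in place of Chaf1b. Members with a called exon bin numbered 4 with the block, 0 with replicates 2 and 3 only and 0 to 1 without 1 library for SF3a1 siRNA without LPS. For SF3a1 siRNA with LPS they numbered 0 at an adjusted p of 0.05, with limma, with at least 10 counts or with replicates 2 and 3 only (the last chosen after seeing the data, at bin level, and with 1 library of control siRNA with LPS, assumed to vary like the other groups), 2 with the block and 0 to 1 without 1 library. The cause of these changes was not tested. Of 2864 alternatives for 196 single-gene results, 2633 kept direction and side of the threshold, 226 lost and 4 gained the call, and 1 turned. Of the 196 results 194 were called to begin with, so only 2 could gain a call. The result that turned was Mcm10 with LPS, at 0.0032 with replicates 2 and 3 only (adjusted p = 0.993). The replicate block changed no call of the LPS comparison with control siRNA, and in the other comparisons it lost none and added members: 1 for SF3a1 siRNA without LPS, 11 for SF3a1 siRNA with LPS, 15 for LPS with SF3a1 siRNA and 18 for the difference.
With 3 libraries per group, small changes and changes in bins with few counts may not have been detectable.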
